A study of Mus musculus with 12 samples.

Results

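Viral restriction factors are host proteins that block single steps of a virus's life in the cell. Genes of this kind, 9 in all, were followed by symbol through the deposited count tables: Bst2, Lgals3bp, Mx1, Mx2, Rsad2, Cmpk2, Samhd1, Apobec3 and Isg20. All 9 were listed in both sets of the study and all 9 passed the filter on low counts, among 33924 and 22609 listed genes, of which 17165 and 15294 passed. The samples were whole lungs of B6 mice aged 6 to 8 weeks, taken 14 to 16 hours after PBS or extract of Dermatophagoides farinae (D.f.), a house dust mite, and RNA was sequenced in 12 libraries, 6 per set. In the RNase III set all mice were wild type, with 2 libraries each for PBS, D.f. extract without RNaseIII and D.f. extract with RNaseIII, an endonuclease specific for RNA duplexes. The knockout set held wild-type and TLR3MAVS double knockout mice given PBS (1 library per genotype) or D.f. extract (2 libraries per genotype). No group received RNaseIII with PBS, and the way the knockout alleles were made is not given in the sources used here. The labels do not say that libraries came from separate animals, so p-values measure the spread between these libraries only, and in whole lung a change in the number of cells of a type and a change in RNA per cell cannot be told apart.

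Double-stranded RNA is sensed in endosomes by the receptor Tlr3 and in the cytosol by RNA helicases that signal through the adaptor Mavs. Both routes lead to type I and type III interferons, whose receptors activate transcription factors that bind interferon-stimulated response elements (ISRE) in promoters, and many restriction factors are made in this way. Bst2 (tetherin) holds budding enveloped particles at the cell surface, and Lgals3bp is a secreted galectin-binding glycoprotein that lowers the infectivity of retroviral particles. Mx1 and Mx2 are dynamin-like GTPases, the first nuclear and the second cytoplasmic in mice, and B6 mice carry alleles of both that do not make a working protein. Rsad2 (viperin) turns CTP into a chain-terminating nucleotide, and its neighbour Cmpk2 is a mitochondrial kinase of pyrimidine nucleotides. Samhd1 breaks down deoxynucleotide triphosphates, Apobec3 deaminates cytidines in retroviral DNA, and Isg20 is an exonuclease that degrades single-stranded RNA.

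Promoter windows from RefSeq (GRCm38.p6, 250 bases before to 50 bases after the start) were on hand for 7 of the 9 genes, in 10 windows, and for neither Mx gene. An ISRE core, searched on both strands as GAAANNGAAA, lay in a window of 3 of those genes, against 3.44% of 32851 promoter windows. That share is per window and not per gene, and Apobec3 has 2 windows and Isg20 has 3. Bst2 has a pair of overlapping cores that begin 130 and 124 bases before the start, Rsad2 has one on the other strand that begins 120 bases before it, and the first of the 2 Apobec3 windows has one on the other strand that begins 140 bases before it. The windows of Cmpk2, Samhd1, Isg20 and Lgals3bp hold none of these letters. A gamma-activated site was searched as TTCNNNGAA, which reads the same on both strands. It lay in the windows of Bst2 and Samhd1 and in the first of the 3 Isg20 windows, against 8.3% of all windows. In Bst2 it shares its last bases with the first ISRE core. The windows below show the 3 genes with a core, in capitals, and Cmpk2, which lies beside Rsad2 and has none. They are chr8:71537423-71537722 (minus strand) for Bst2, chr12:26456403-26456702 (minus strand) for Rsad2, chr15:79892158-79892457 (plus strand) for Apobec3 and chr12:26468965-26469264 (plus strand) for Cmpk2.
Bst2: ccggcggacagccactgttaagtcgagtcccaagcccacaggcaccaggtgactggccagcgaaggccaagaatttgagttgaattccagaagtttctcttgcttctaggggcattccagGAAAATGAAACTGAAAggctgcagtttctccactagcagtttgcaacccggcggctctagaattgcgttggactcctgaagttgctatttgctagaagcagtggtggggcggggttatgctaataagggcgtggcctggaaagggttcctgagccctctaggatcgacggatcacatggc
Rsad2: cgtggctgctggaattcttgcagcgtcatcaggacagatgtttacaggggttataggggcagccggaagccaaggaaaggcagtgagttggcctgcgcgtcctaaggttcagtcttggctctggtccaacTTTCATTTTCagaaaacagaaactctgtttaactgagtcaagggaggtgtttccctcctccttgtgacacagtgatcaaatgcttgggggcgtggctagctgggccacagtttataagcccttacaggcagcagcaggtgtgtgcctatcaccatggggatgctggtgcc
Apobec3: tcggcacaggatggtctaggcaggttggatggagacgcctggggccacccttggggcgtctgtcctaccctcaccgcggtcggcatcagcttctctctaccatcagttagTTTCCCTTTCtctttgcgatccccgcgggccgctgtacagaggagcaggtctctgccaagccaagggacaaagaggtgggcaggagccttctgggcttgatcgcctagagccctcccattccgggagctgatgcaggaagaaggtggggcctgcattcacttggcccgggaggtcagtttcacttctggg
Cmpk2: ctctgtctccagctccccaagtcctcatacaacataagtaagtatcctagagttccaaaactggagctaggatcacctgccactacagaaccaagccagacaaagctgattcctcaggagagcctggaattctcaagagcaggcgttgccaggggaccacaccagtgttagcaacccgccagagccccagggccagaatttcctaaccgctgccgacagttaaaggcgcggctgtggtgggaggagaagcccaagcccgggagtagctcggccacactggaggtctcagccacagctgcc

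Between 17754518 and 25714074 reads per library were assigned to genes in the RNase III set, and between 15687699 and 20945618 in the knockout set. Levels are given as CPM, reads of a gene relative to the library size scaled within each set, and the lowest count of any of the 9 genes in any library was 44 reads, for Mx2 in the knockout PBS library. The targeted genes were low in all 3 libraries labelled knockout, where Mavs lay between 2.35 and 3.09 CPM and Tlr3 between 10.04 and 14.8 CPM, against 32.2 to 36.4 CPM and 42.4 to 156 CPM in the wild-type libraries of that set. Libraries of a group were not copies of each other, and the pairs farthest apart were wild-type PBS of the RNase III set and knockout extract, with chi-square per degree of freedom of 46.6 and 34.3 against 7.33 to 27.7 in the other pairs. Of the PBS pair, replicate 2 had a summed level of 10 cardiac muscle markers of 1432 CPM against 188 CPM in replicate 1, and of 6 adipose markers of 131 against 7.18 CPM, with Adipoq, Retn and Lep at 0 in replicate 1. Replicate 1 was the one with more Mx1, Mx2, Rsad2 and Cmpk2. The cardiac sum differed between groups as well, at 223 to 247 CPM with extract and RNaseIII against 530.5 to 1086 CPM with extract alone. In the knockout set it was 862.7 CPM in wild-type PBS, 466 to 695.5 in wild-type extract, 153.5 in knockout PBS and 132 to 193 in knockout extract. The part of tissue make-up in any of these differences was not tested.

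All 9 genes rose with mite extract in wild-type lung of the RNase III set, between 3.42-fold for Samhd1 and 35.4-fold for Rsad2, by the quasi-likelihood test of edgeR at an adjusted p (Benjamini-Hochberg, over all genes tested) below 0.05. Of all 17165 genes tested there, 6.51% rose. For each of the 9 both extract libraries lay above both PBS libraries, as did 25.6% of all genes. The median log2 fold change of the 9 genes was 3.26, against -0.01 over all genes tested. In the knockout set, where wild-type PBS is a single library assumed to vary like the replicated groups, 7 of the 9 rose, against 1.38% of 15294 genes, and the median was 3.37. Both extract libraries lay above that PBS library for all 9, as for 42.4% of genes. Samhd1 and Apobec3 were the pair not called, with log2 fold changes of 1.66 and 1.08 and adjusted p-values of 0.0726 and 0.0708. They were called in that set without the filter on low counts, with DESeq2 and with 1 fit over all 12 libraries. None of the 9 was called there without extract replicate 3 or without extract replicate 4, and no gene was. All 9 were called without knockout extract replicate 5 or 6, among 3150 and 2977 genes called in those fits, which have 1 residual degree of freedom. With the 7 wild-type libraries given PBS or extract without RNaseIII in 1 fit all 9 rose, against 8.53% of 15481 genes, though Mx2 was not called without extract replicate 4 of the RNase III set (adjusted p = 0.0506). The response did not pass a test of difference between the sets for any of the 9, nor for any gene tested (0.00%; 923 genes and 1 of the 9 at an unadjusted p under 0.05, and 38 genes with DESeq2). That 1 was Apobec3, whose log2 response was lower by 0.91 ± 0.24 (SE) in the knockout set, with an unadjusted p of 0.0043 and an adjusted p of 0.668 by edgeR.

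**Figure D1:**
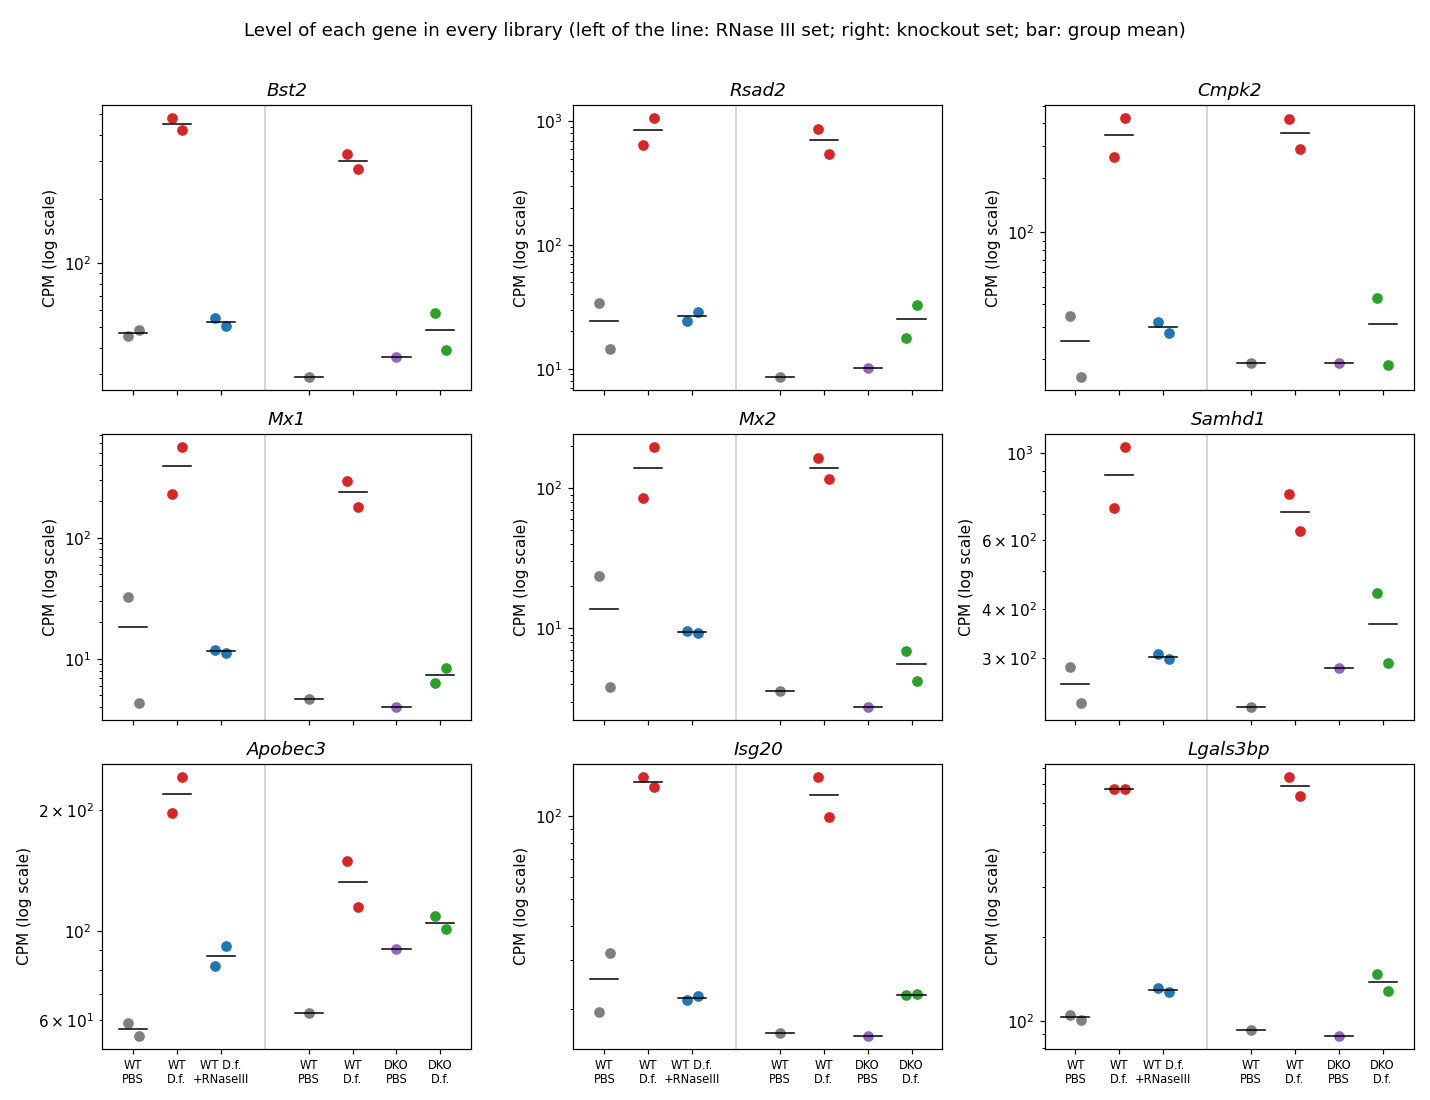
Each panel shows 1 gene: points are libraries, bars are group means, and the vertical axis is CPM on a log scale. Extract libraries of wild-type mice, in red, lie above the PBS libraries of their set for every gene, and the knockout extract libraries, in green, lie below them, with the narrowest gap for Apobec3.

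Bst2 stood at 45.3 and 48.5 CPM in the PBS libraries of the RNase III set and at 480 and 419 CPM with extract. Extract with RNaseIII left it at 55.1 and 50.3 CPM. The RNaseIII libraries lay just above the PBS pair, as for 16.4% of all genes, and both extract libraries stood far above the other 4. The rise was 9.59-fold, a log2 fold change of 3.26 ± 0.14 (SE; edgeR adjusted p = 0.000116), and extract with RNaseIII was 8.53-fold below extract alone (log2 -3.09 ± 0.14, adjusted p = 0.000273). Among knockout set libraries, Bst2 was 29.1 CPM in wild-type PBS, 36.0 CPM in knockout PBS, 325 and 275 CPM in wild-type extract, and 58.2 and 38.8 CPM in knockout extract. The knockout libraries with extract lay just above their own PBS library, as for 33.3% of all genes, and 6.18-fold below wild type with extract (log2 -2.63 ± 0.22, adjusted p = 0.0117). That call was lost without wild-type extract replicate 3 or 4 (adjusted p = 0.154 and 0.0895).

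Lgals3bp was 105 and 101 CPM with PBS, 674 and 673 CPM with extract and 131 and 126 CPM with extract and RNaseIII. The rise was 6.53-fold (log2 2.71 ± 0.13, edgeR adjusted p = 0.000148) and the loss with RNaseIII 5.23-fold (log2 -2.39 ± 0.13, adjusted p = 0.000351). The second set had it at 92.5 CPM in wild-type PBS and 88.3 CPM in knockout PBS, 743 and 633 CPM in wild-type extract, and 147 and 128 CPM in knockout extract. The RNaseIII libraries and the knockout extract libraries lay above PBS of their own genotype without overlap, as for 16.4% and 33.3% of all genes, and far below wild-type extract. Knockout extract lay 5.01-fold below wild-type extract (log2 -2.32 ± 0.13, adjusted p = 0.00496), a call lost without wild-type extract replicate 3 or 4 (adjusted p = 0.0791 and 0.0516).

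The Mx genes lie on chr16, Mx1 at 97668642-97684514 on the minus strand and Mx2 at 97757690-97782506 on the plus strand (NCBIM37, the authors' mm9), 73175 bases apart. They are related in sequence: of 3506 distinct 50-base windows in annotated coding transcripts of Mx1 and 2368 of Mx2, 159 are shared. Reads without a unique alignment, 36.8% to 44.6% of those each library accounts for, are counted for no gene. Reads from the shared windows may thus be missing from both Mx genes. Mx1 was 32.4 and 4.34 CPM with PBS, 228 and 558 CPM with extract, and 11.8 and 11.3 CPM with extract and RNaseIII. Mx2 was 23.5 and 3.80 CPM with PBS, 84.5 and 195 CPM with extract, and 9.64 and 9.30 CPM with extract and RNaseIII. For both genes the RNaseIII libraries fell between the 2 PBS libraries, and both extract libraries stood above all of these. The rises were 21.6-fold for Mx1 (log2 4.43 ± 0.86, edgeR adjusted p = 0.0195) and 10.3-fold for Mx2 (log2 3.37 ± 0.75, adjusted p = 0.0323). With RNaseIII the levels were lower than with extract alone by 34.1-fold and 14.8-fold (adjusted p = 0.0174 and 0.0282).

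These Mx values rest on single libraries of the RNase III set more than those of the other genes. Without PBS replicate 1 the log2 rises became 6.499 for Mx1 and 5.20 for Mx2, and without PBS replicate 2 they became 3.6 and 2.57. Without extract replicate 4 neither gene was called, with log2 rises of 3.65 and 2.64 and adjusted p-values of 0.114 and 0.184. Mx2 was also not called without extract replicate 3 or without either RNaseIII replicate. Against extract alone, the loss with RNaseIII was not called for Mx1 or Mx2 without extract replicate 4 or either RNaseIII replicate, nor for Mx2 without extract replicate 3. Wild-type PBS of the knockout set was low for both, and there Mx1 went from 4.67 CPM to 294 and 180 CPM in wild type and Mx2 from 3.59 CPM to 164 and 116 CPM. Knockout lungs held 4.04 CPM of Mx1 and 2.77 CPM of Mx2 with PBS, and 6.27 and 8.34 CPM of Mx1 and 6.96 and 4.25 CPM of Mx2 with extract. Both knockout extract libraries lay above the knockout PBS library for both genes, as for 33.3% of all genes. Those libraries also lay far below wild-type extract, where 25.6% of all genes lay below without overlap. Knockout extract lay 32.4-fold below wild-type extract for Mx1 (log2 -5.02 ± 0.31, adjusted p = 0.00621) and 25.0-fold below it for Mx2 (log2 -4.65 ± 0.30, adjusted p = 0.00705). Without wild-type extract replicate 3 the second of these was not called (adjusted p = 0.0791).

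Rsad2 and Cmpk2 lie head to head on chr12, at 27127618-27141317 on the minus strand and 27154069-27164700 on the plus strand (NCBIM37), with 12751 bases between them. Rsad2 was 34.0 and 14.5 CPM with PBS, 642 and 1069 CPM with extract, and 24.5 and 28.6 CPM with extract and RNaseIII. Cmpk2 was 34.6 and 15.8 CPM with PBS, 261 and 430 CPM with extract, and 32.0 and 27.9 CPM with extract and RNaseIII. Within each pair of libraries the same one was higher for both genes with PBS and with extract, and the RNaseIII libraries lay inside the PBS range. The rises were 35.4-fold for Rsad2 (log2 5.15 ± 0.46, edgeR adjusted p = 0.00108) and 13.7-fold for Cmpk2 (log2 3.78 ± 0.40, adjusted p = 0.00193). Without PBS replicate 1 the log2 rises became 5.89 and 4.45. With RNaseIII the levels were 32.2-fold and 11.5-fold lower than with extract alone (adjusted p = 0.00154 and 0.00317), and the loss of Cmpk2 was not called without RNaseIII replicate 5 or 6 (adjusted p = 0.0548 and 0.0503).

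In wild-type mice of the knockout set Rsad2 went from 8.54 CPM with PBS to 862 and 548 CPM with extract, and Cmpk2 from 19.1 CPM to 424 and 289 CPM. In knockout mice Rsad2 was 10.2 CPM with PBS and 17.7 and 32.7 CPM with extract, and Cmpk2 was 18.9 CPM with PBS and 43.5 and 18.4 CPM with extract. The 2 knockout extract libraries thus went opposite ways: replicate 5 had less Rsad2 and more Cmpk2 than replicate 6. Against wild-type extract, knockout extract was 27.9-fold lower for Rsad2 (log2 -4.80 ± 0.39, edgeR adjusted p = 0.0116) and 11.5-fold lower for Cmpk2 (log2 -3.53 ± 0.44, adjusted p = 0.0271). Neither was called without wild-type extract replicate 3 (adjusted p = 0.107 and 0.261) or 4 (0.0584 and 0.15), and without knockout extract replicate 5 the Cmpk2 difference became log2 -4.28.

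Per kilobase of annotated exon, Rsad2 was the lower of the pair with PBS and the higher with extract. The ratio of Rsad2 to Cmpk2 was 0.725 and 0.676 with PBS, 1.82 and 1.84 with extract, and 0.565 and 0.759 with extract and RNaseIII. The same ratio in the knockout set was 0.331 in wild-type PBS, 1.5 and 1.4 in wild-type extract, 0.400 in knockout PBS, and 0.301 and 1.32 in knockout extract. The ratio of Mx1 to Mx2 was 0.913 and 0.758 with PBS, 1.79 and 1.90 with extract, and 0.811 and 0.804 with extract and RNaseIII. For the knockout set it was 0.863 in wild-type PBS, 1.19 and 1.03 in wild-type extract, 0.964 in knockout PBS, and 0.597 and 1.30 in knockout extract. All 4 wild-type extract libraries had ratios above 1 for both pairs, and all 5 other wild-type libraries had ratios below 1; these ratios were not tested.

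**Figure D2:**
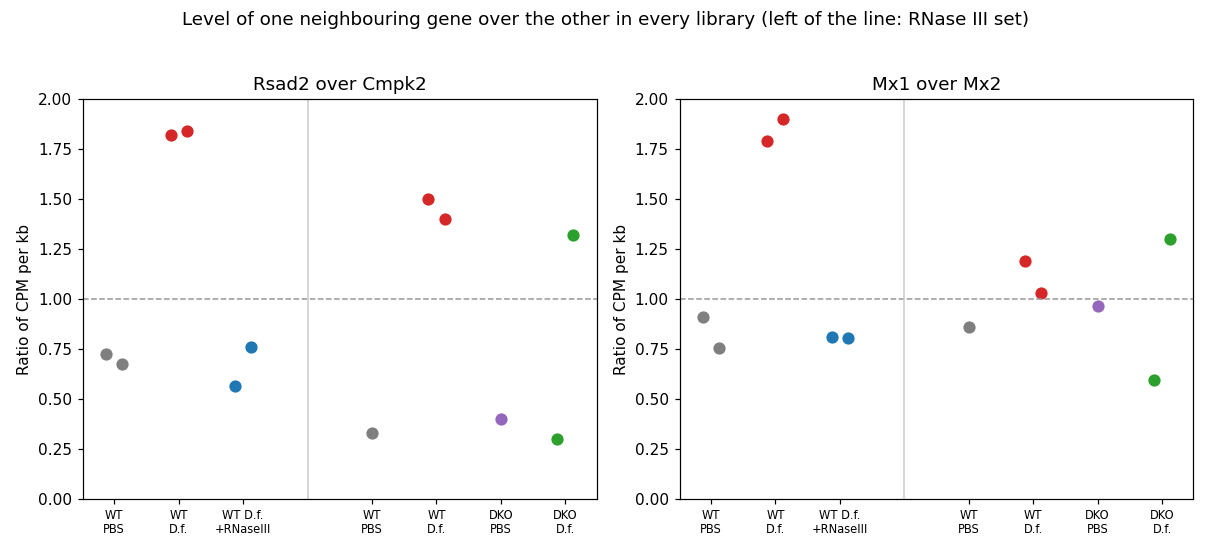
Points are libraries, and the vertical axis is the ratio of the CPM per kilobase of Rsad2 to that of Cmpk2 (left) and of Mx1 to that of Mx2 (right). The wild-type extract libraries, in red, reach 1.84 and 1.90, and the 2 knockout extract libraries, in green, lie on either side of 1 in both panels.

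Samhd1 and Apobec3 had the smallest rises of the 9. Samhd1 was 285 and 230 CPM with PBS, 725 and 1037 CPM with extract, and 308 and 298 CPM with extract and RNaseIII. Apobec3 was 59.2 and 54.9 CPM with PBS, 197 and 242 CPM with extract, and 82.0 and 91.9 CPM with extract and RNaseIII. For both genes the RNaseIII libraries lay above PBS, as for 16.4% of all genes, and below extract alone, as for 30.7%. The rises were 3.42-fold for Samhd1 (log2 1.77 ± 0.21, edgeR adjusted p = 0.00255) and 3.85-fold for Apobec3 (log2 1.95 ± 0.15, adjusted p = 0.00055). With RNaseIII the levels were 2.91-fold and 2.53-fold lower than with extract alone (adjusted p = 0.00589 and 0.00278). That loss was not called for Samhd1 without RNaseIII replicate 5 or 6 (adjusted p = 0.0916 and 0.0765), nor for Apobec3 without RNaseIII replicate 5 (adjusted p = 0.0668).

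In wild-type mice of the knockout set Samhd1 was 226 CPM with PBS and 788 and 632 CPM with extract, and Apobec3 was 62.6 CPM with PBS and 150 and 115 CPM with extract. In knockout mice Samhd1 was 284 CPM with PBS and 441 and 291 CPM with extract, and Apobec3 was 90.3 CPM with PBS and 109 and 101 CPM with extract. Neither gene passed the test between knockout and wild type with extract: Samhd1 was 1.94-fold lower in the knockout (log2 -0.96, 95% confidence interval -1.51 to -0.40, edgeR adjusted p = 0.104) and Apobec3 1.26-fold lower (log2 -0.33, interval -0.70 to 0.03, adjusted p = 0.31). For Samhd1 the difference was called with DESeq2 and without knockout extract replicate 5 or 6, and for Apobec3 without replicate 5. The wild-type and knockout extract libraries did not overlap for either gene, as for 25.6% of all genes in that direction.

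Isg20 was 19.5 and 31.7 CPM with PBS, 139 and 127 CPM with extract, and 21.5 and 22.1 CPM with extract and RNaseIII. The RNaseIII libraries lay inside the PBS range. Isg20 rose 5.18-fold (log2 2.37 ± 0.22, edgeR adjusted p = 0.0012) and was 6.09-fold lower with RNaseIII than with extract alone (log2 -2.61 ± 0.22, adjusted p = 0.00141). The knockout set had Isg20 at 16.3 CPM in wild-type PBS, 15.9 CPM in knockout PBS, 139 and 99.2 CPM in wild-type extract, and 22.3 and 22.5 CPM in knockout extract. The knockout extract libraries were close to each other and above knockout PBS, as for 33.3% of all genes. Knockout extract was 5.31-fold below wild-type extract (log2 -2.41 ± 0.18, adjusted p = 0.00994), a call lost without wild-type extract replicate 3.

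With RNaseIII in the extract, the 9 estimates lay between log2 -0.66 (Mx1) and 0.61 (Apobec3) of the PBS level. None of the 9 was called against PBS, where 0.00583% of all genes tested were called, and their median log2 fold change was 0.17. Without PBS replicate 1 the values became 1.41 for Mx1 and 1.32 for Mx2, and without PBS replicate 2 they became -0.36 for Rsad2, -0.21 for Cmpk2 and 0.16 for Isg20, so the sign of these 5 against PBS rests on 1 library. At an unadjusted p under 0.05, edgeR had 2 of the 9, Apobec3 (log2 0.61 ± 0.14) and Lgals3bp (log2 0.32 ± 0.12), among 835 of 17165 genes; DESeq2 called none of the 9. The RNaseIII libraries stood above both PBS libraries for Bst2, Samhd1, Apobec3 and Lgals3bp, and 16.4% of all genes tested did so. The share of the CPM rise left with RNaseIII was 18.4% for Apobec3, 7.22% for Samhd1 and 4.51% for Lgals3bp, and between -3.54% (Isg20) and 1.47% (Cmpk2) for the other 6. Against extract alone all 9 fell, where 4.85% of genes tested fell, and for all 9 both libraries lay below both extract libraries, as for 30.7% of genes. Without RNaseIII replicate 5 only 4 of the 9 were called in that comparison, among 146 genes in all, and without RNaseIII replicate 6 there were 5, among 238. Without extract replicate 4 there were 7, among 359, and without extract replicate 3 there were 8, among 537. Since no group received RNaseIII with PBS, an action of the enzyme on the lung and its action on the extract cannot be told apart.

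**Figure D3:**
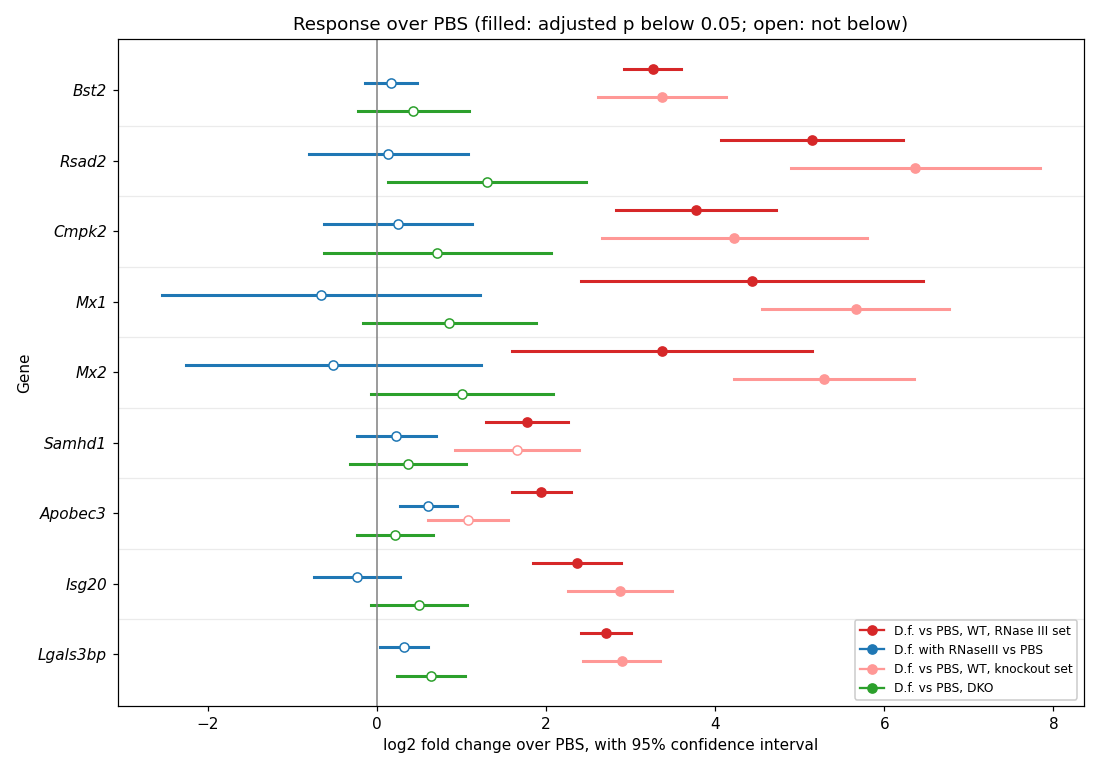
Points are log2 fold changes over PBS from edgeR with 95% confidence intervals, filled where the adjusted p is below 0.05. Responses to extract in wild type lie between 1.08 and 6.37, and the intervals with RNaseIII, in blue, include 0 for every gene except Apobec3 and Lgals3bp.

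In the double knockout none of the 9 passed the test of extract against PBS, and no gene of 15294 did (0.00%). All 9 point estimates were above 0, as were those of 7904 genes of 15294. The 9 ran from 0.22 for Apobec3 to 1.30 for Rsad2, with a median of 0.64 against 0.01 over all genes. They were all set against the same single knockout PBS library, so their common sign and the shares given below can rest on that library. At an unadjusted p under 0.05, edgeR had Rsad2 and Lgals3bp (log2 0.64 ± 0.16) of the 9, among 847 genes, and DESeq2 called 37 genes, none of them among the 9. Both knockout extract libraries were above the knockout PBS library for 8 of the 9, as were 33.3% of all genes tested, and Cmpk2 overlapped. Without knockout extract replicate 6, Bst2, Cmpk2, Mx2, Samhd1 and Lgals3bp were called as higher with extract, among 266 genes called in either direction, and without replicate 5, Rsad2, Mx1 and Lgals3bp were, among 2092. Those fits have 1 residual degree of freedom, and with another library left out no gene was called. The share of the wild-type CPM rise seen in the knockout was 21.1% for Apobec3 and 17% for Samhd1, 8.25% for Lgals3bp, 6.37% for Isg20, and between 1.41% (Mx1) and 4.62% (Bst2) for the other 5.

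Between genotypes with extract, 7 of the 9 were lower in the knockout, where 2.01% of all genes tested fell, and for all 9 the knockout libraries lay below both wild-type libraries, as for 25.6% of genes. Without wild-type extract replicate 3 only Mx1 of the 9 was called, among 7 genes in all, and without wild-type extract replicate 4, Mx1, Mx2 and Isg20 were, among 17. Without knockout extract replicate 5 all 9 were called, among 3048 genes, and without replicate 6 there were 8, among 2479. The interaction, which asks whether the response to extract differed between genotypes, was below 0 for all 9, as for 7854 of 15294 genes. Its log2 values ran from -5.06 for Rsad2 to -0.86 for Apobec3. It was called for none of the 9 by edgeR, where 0.00654% of genes were called. The adjusted p ranged from 0.112 for Lgals3bp to 0.36 for Samhd1. At an unadjusted p under 0.05, edgeR had all 9, among 1481 genes, and DESeq2 called 7 of the 9. All 9 were called by edgeR without knockout extract replicate 5 or 6, among 1666 and 1238 genes called, and no gene was without wild-type extract replicate 3 or 4. With PBS the single knockout library held between 77.4% (Mx2) and 144% (Apobec3) of the wild-type level, with no replicate to judge this by. None of the 9 was 2-fold apart, while 1.92% of all genes were at least 2-fold lower in the knockout library and 1.16% at least 2-fold higher.

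The loss with RNaseIII and the loss in the knockout were set against each other in a fit of all 12 libraries. None of the 9 differed between them after adjustment, where 0.00646% of genes did, namely Mavs alone. For Apobec3 the RNaseIII difference lay below the knockout difference by log2 -1.02 ± 0.22 (unadjusted p = 0.001, edgeR adjusted p = 0.208), and DESeq2 called this (adjusted p = 0.0113). The estimated rise of Apobec3 also differed between the wild types of the 2 sets (log2 -0.91, not called). The shares of its rise left were 18.4% with RNaseIII and 21.1% in the knockout, but they do not have a common baseline. The knockout share is counted from the single knockout PBS library, which held 90.3 CPM against 62.6 CPM in wild-type PBS. Knockout extract held 109 and 101 CPM and wild-type extract 150 and 115 CPM. The intervals of the others leave room for differences in either direction: log2 -0.46 to 0.30 for Lgals3bp, -1.05 to 0.09 for Bst2, -1.60 to 1.14 for Rsad2 and -1.41 to 2.90 for Mx2. The 2 sets also differ in their listed genes and in their PBS libraries. Their lung samples differ as well. The summed level of 4 club cell markers was 12770 to 27130 CPM across the RNase III set and 1160 to 1837 CPM across the knockout set. The part of this in the contrasts between sets was not tested.

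**Figure D4:**
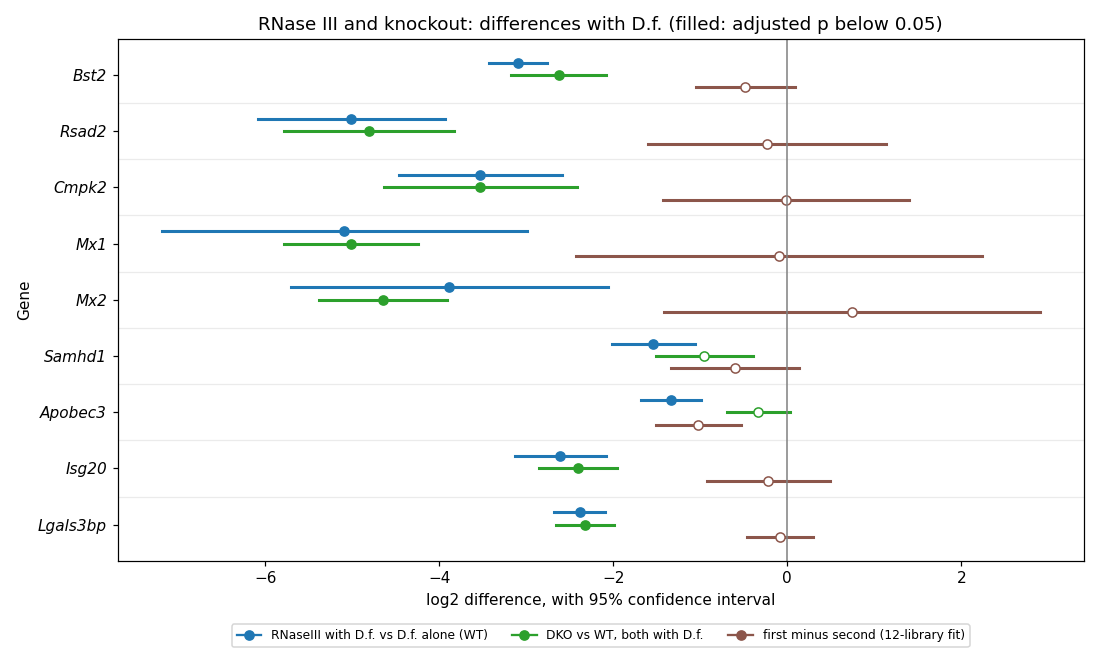
Points are log2 differences from edgeR with 95% confidence intervals: extract with RNaseIII against extract alone (blue), knockout against wild type with extract (green), and the first minus the second (brown), filled where the adjusted p is below 0.05. The brown intervals include 0 for every gene except Apobec3, whose estimate is -1.02.

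Levels of different genes were compared per kilobase of annotated exon. Bst2 had the highest mean in every group, at 61.4 ± 2.96 CPM per kilobase (SD, n = 2) with PBS and 588 ± 56.0 with extract in the RNase III set. Lgals3bp came next in 6 of the 7 groups and Apobec3 in knockout PBS. With extract in the RNase III set the order went on with Rsad2, Cmpk2, Mx1, Samhd1, Apobec3, Isg20 and Mx2. Neighbours in this order overlapped between libraries, except that Bst2 stood above Lgals3bp and Rsad2 above Cmpk2. With PBS in that set the lower part of the order, Isg20, Cmpk2, Mx2, Rsad2 and Mx1, overlapped between libraries from each gene to the next. By group means Rsad2 was in the eighth place with PBS, at 5.596 ± 3.18 CPM per kilobase, and in the third with extract, at 198 ± 69.9. With extract and RNaseIII it was seventh, at 6.13 ± 0.68, and the order of the lower 5, Isg20, Cmpk2, Rsad2, Mx2 and Mx1, was by group means the same as in knockout extract and in both PBS libraries of the knockout set. In knockout extract all neighbours in the order overlapped between libraries, except that Apobec3 stood above Isg20 and Rsad2 above Mx2. Bst2 and Lgals3bp thus overlapped there, at 50.8 to 76.2 against 44.8 to 51.7 CPM per kilobase.

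For likeness between genes, log2 levels (CPM plus 0.5) were centred on the mean of each gene within each set. Across the 12 libraries the centred level of each gene followed the mean of the other 8. Pearson's r ran from 0.836 for Apobec3 and 0.961 for Isg20 to 0.991 for Rsad2 and Cmpk2. Rsad2 had the widest spread of centred levels over libraries (SD 2.65 on the log2 scale) and Apobec3 the narrowest (0.662). The closest pair was Bst2 and Lgals3bp (r = 0.994) and the least alike Mx2 and Apobec3 (r = 0.758). Outside the 9, and without unnamed gene models (Gm or Rik), 13621 genes tested in both sets were compared with the mean of the 9. The 8 most like it were Oas1a, Eif2ak2, Irf7, Tor1aip1, Dhx58, Ogfr, Adar and Isg15, with r from 0.996 down to 0.995. These values describe libraries that fall into a high and a low cluster, share their groups and carry no test.

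Other genes of the route were taken from fixed lists. Of 15 genes for double-stranded RNA sensing and interferon signalling, 13 were tested in the RNase III set, where 8 rose with extract and 7 fell with RNaseIII against extract alone. Among them the RNA helicase Ifih1 rose by log2 2.55 ± 0.17 (edgeR adjusted p = 0.000402). Of 26 other antiviral effectors, 25 were tested and 22 rose, the synthetase Oas3 by 5.77 ± 0.22 and the nucleic acid sensor Zbp1 by 4.97 ± 0.29 (adjusted p = 9.62e-05 and 0.000264). The same number, 22, fell with RNaseIII. Over all genes tested the shares were 6.51% and 4.85%. Wild-type mice of the knockout set had 3 of 13 route genes and 17 of 26 effectors that rose, against 1.38% of all genes. Knockout mice had 0 of either list, where no gene at all was called (0.00%), and 6 and 21 were lower in knockout extract than in wild-type extract, against 2.01%. The route genes lower there include the targeted Tlr3 and Mavs.

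A list of 19 genes supplies or breaks down pyrimidine and deoxynucleotides, the substrates of Rsad2, Cmpk2 and Samhd1. With extract in the RNase III set 3 of them rose, against 6.51% of all genes, and none fell, with a median log2 fold change of 0.13. The 3 were the nucleotidase Nt5c3 (1.75 ± 0.16), the deoxycytidine kinase Dck (2.1 ± 0.30) and the CTP synthase Ctps (1.49 ± 0.24), with edgeR adjusted p-values of 0.0012, 0.00564 and 0.00957. The same 3 fell with RNaseIII against extract alone, where 4.85% of all genes fell. Dck rose also in wild type of the knockout set (1.95 ± 0.21, adjusted p = 0.0294), as did 1.38% of all genes. Dck and Nt5c3 were lower in knockout extract than in wild-type extract, against 2.01% of all genes. In the fit over both sets 5 of the 19 rose and 1 fell, against 8.53% and 6.18% of all genes. Of 10 relatives and partners of the 9 genes, 2 rose in both sets, the galectin Lgals9 and the cytidine deaminase Apobec1, against 6.51% and 1.38% of all genes. The kinase Cmpk1, which acts on the same kind of substrate as Cmpk2, was not called in either set (0.45 ± 0.13 and 0.34 ± 0.13, adjusted p = 0.0791 and 0.277) and rose in the fit over both (0.38 ± 0.10, adjusted p = 0.0352). All of these lists were chosen with earlier results of the data known.

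Markers of natural killer and T cells were higher with extract in the RNase III set, and their part in these results was not tested. Of 8 natural killer cell markers 5 rose with extract in the RNase III set, against 6.51% of all genes. The summed level of the 8 was 24.7 to 33.8 CPM with PBS, 80.6 to 90.0 CPM with extract and 25.8 to 27.4 CPM with RNaseIII. For 9 T cell markers, 3 of which rose, the sums were 38.5 to 53.4, 86.0 in both extract libraries and 34.5 to 37.7 CPM. Against extract alone, 6 of the 8 natural killer and 7 of the 9 T cell markers fell with RNaseIII. So did 2 of 7 tested markers of B and plasma cells, against 4.85% of all genes. None of the 8 natural killer or 8 tested T cell markers was called in wild type of the knockout set, where 1.52% of all genes were. Lower in knockout extract than in wild-type extract were 0 of the 8 and 1 of the 8, against 2.01% of all genes. For the knockout set the natural killer sum was 13.4 CPM in wild-type PBS (Klra8 at 0), 38.8 to 42.9 in wild-type extract, 49.1 in knockout PBS and 13.5 to 28.1 in knockout extract, and the T cell sum 23.9, 50.4 to 54.2, 37.5 and 23.7 to 24.8 CPM. Bst2 is itself a surface antigen of mouse plasmacytoid dendritic cells. Of 8 markers of these cells, 1 (Pacsin1) rose in the RNase III set, where 6.51% of all genes rose. None fell with RNaseIII against extract alone, where 4.85% of all genes fell. In wild type of the knockout set 2 of 7 tested, Siglech and Ccr9, rose, against 1.38% of all genes. Lower in knockout extract than in wild-type extract were 3 of 7 tested, against 2.01% of all genes. The median log2 difference of the tested markers was -1.44 with RNaseIII and -1.50 in the knockout. The sum of the 8 was 339 to 369 CPM across the RNase III set and 400 to 443 CPM across the knockout set (Klk1 at 0 in wild-type PBS), of which Tcf4, made by many cells, gave most. Siglech was 1.90 to 8.12 CPM with PBS, a range that spans the 5.51 to 6.18 with extract, and 1.77 to 1.98 with RNaseIII, and in the knockout set 1.42 in wild-type PBS, 8.94 to 14.1 in wild-type extract, 1.77 in knockout PBS and 1.70 to 2.34 in knockout extract. Other lists moved with extract in the RNase III set as well, and their part was not tested either. There 2 of 7 tested neutrophil markers and 3 of 10 monocyte and interstitial macrophage markers rose. Of tested markers, 3 of 9 for alveolar macrophages, 3 of 4 for mesothelial cells and 2 of 7 for fibroblasts fell. The alveolar type 1, club, endothelial and cardiac muscle lists each had 1 marker that fell. Over all genes tested, 6.51% rose and 4.50% fell. The summed level of the alveolar macrophage list was 766 to 794 CPM with PBS, 234 to 462 with extract and 413 to 482 with RNaseIII. For the neutrophil list it was 43.9 to 98.8, 124 to 195 and 75.3 to 111 CPM. For the monocyte and interstitial macrophage list it was 1300 to 1528, 1331 to 1426 and 1116 to 1513 CPM. In wild type of the knockout set 0 of 8 tested alveolar macrophage markers were called, where 1.52% of all genes were. The sum of that list there was 377.8 CPM with PBS and 352.5 to 369.1 CPM with extract.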

How the data were processed

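RNA of whole mouse lung was sequenced in 12 libraries. Per the labels' protocols and design text, total RNA was taken with TRIzol, libraries were made with the Illumina TruSeq total RNA kit and read as single ends on an Illumina HiSeq, and reads were trimmed and masked. Per the submitters' processing notes reads were aligned with TopHat2 2.0.8b to mm9 and counted with HTSeq; no source used here gives the HTSeq version, gene annotation or strand setting. Each library has 1 deposited table of raw counts, and between 23.1% and 28.2% of the reads a table accounts for were assigned to a gene; rows that name no gene were left out. Counts of reads carry counting error, which sets the precision of low genes.

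Each set was fitted apart with edgeR 4.0.16 (R 4.3.3): filterByExpr, TMM scaling, quasi-likelihood fit and test with 1 mean per group, Benjamini-Hochberg adjustment over all genes tested, threshold 0.05. SE is the log2 fold change over the square root of F. Contrasts across sets used 1 fit of the 12 libraries, or of the 7 wild-type ones given PBS or untreated extract, with the set as a term. CPM used TMM factors within a set, and lengths per kilobase came from exon unions of GENCODE on NCBIM37. Named are the 9 genes everywhere, Tlr3 and Mavs, up to 4 list genes with the smallest p per comparison, and the 8 genes most like the mean of the 9; markers called and Siglech, Tcf4 and Pacsin1 were named after their values were seen. Members and lists were chosen with earlier results of these data known. The code was tested on simulated counts. Alternatives were size factors by RLE, no low-count filter, DESeq2 1.42.0, 1 fit of all libraries, each library left out, and CPM without TMM.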

Additional observations from a re-analysis of the deposited data

How the results depend on the processing

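Counts of all genes called and of the 9 genes called, and the log2 fold change of each of the 9, were recomputed under the alternatives. Under RLE, no low-count filter, DESeq2 and the 12-library fit, the 9 genes lost 1 call (Cmpk2 in wild type of the knockout set under RLE, adjusted p = 0.0519) and gained 18. Of the 9, the interaction had 1 called without the filter, 7 with DESeq2 and 2 with the 12-library fit, and RNaseIII against knockout loss had 1 with DESeq2. All genes called numbered 10 without the filter and 50 with DESeq2 for RNaseIII against PBS, 1887 with DESeq2 for RNaseIII against extract, 391 without the filter, 649 with DESeq2 and 391 with the 12-library fit for wild type of the knockout set, 37 with DESeq2 for knockout extract against PBS, 732 with DESeq2 for knockout against wild type, 16, 214 and 7 for the interaction under those settings, 3 without the filter and 202 with DESeq2 for RNaseIII against knockout loss, and 38 with DESeq2 for the difference between sets. The cause was not tested.

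Leaving out 1 library, the count of all genes called and of the 9 called ran from 584 to 3071 and 7 to 9 for extract against PBS in the RNase III set, 0 to 188 and 0 to 0 for RNaseIII against PBS, 146 to 2874 and 4 to 9 for RNaseIII against extract, 0 to 3150 and 0 to 9 for wild type of the knockout set, 0 to 2092 and 0 to 5 for the knockout, 7 to 3048 and 1 to 9 between genotypes, 0 to 1666 and 0 to 9 for the interaction, 1080 to 2428 and 8 to 9 over both sets, 0 to 33 and 0 to 0 between sets, and 1 to 144 and 0 to 0 for RNaseIII against knockout loss. Where 1 library of a pair is left out, the other is assumed to vary like the other groups, and the knockout set then has 1 residual degree of freedom.

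No called value changed sign. Values not called that did, as log2 ranges over left-out libraries, were for RNaseIII against PBS Mx1 (-1.49 to 1.41), Mx2 (-1.31 to 1.32), Rsad2 (-0.36 to 0.88), Cmpk2 (-0.21 to 0.92) and Isg20 (-0.54 to 0.16); for knockout extract against PBS Cmpk2 (-0.036 to 1.21); between sets Mx1 (-0.82 to 2.07), Cmpk2 (-0.21 to 0.91), Samhd1 (-0.39 to 0.15) and Bst2 (-0.065 to 0.19); and for RNaseIII against knockout loss Cmpk2 (-0.49 to 0.78), Mx1 (-0.60 to 0.70), Rsad2 (-0.60 to 0.31), Lgals3bp (-0.21 to 0.078) and Isg20 (-0.49 to 0.010). That last value for Cmpk2 was 0.0019 under RLE, 0.023 without the filter and 0.00042 with DESeq2. CPM without TMM moved no group mean of the 9 by more than 3.66%. No paired analysis was possible because replicate numbers run from 1 to 6 within a set and the groups compared share none.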
